A study of Mus musculus with 18 samples.

Results

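Whether tunicamycin changed the footprint reads under harringtonine, set against RNA reads, was asked of 4538 genes in mouse erythroblasts. These cells are the nucleated precursors of red blood cells. A gene entered when it had at least 1 deposited harringtonine position and a row in the RNA count table under the same symbol. Of 4613 genes with harringtonine positions, 75 found no symbol match, and the RNA table of the whole series held 20683 genes. The measure is the ratio of harringtonine reads to RNA reads, and its change by treatment was read from 12 libraries. All deposited positions of a gene are summed, also those far from its 5' end, so the ratio does not count start sites alone.

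There were 4 groups of 3 libraries each. Harringtonine footprints came from cells given tunicamycin at 2.5 ug/ml for 1.5 h and from untreated cells, all exposed to 2 ug/ml harringtonine, and RNA came from cells with the same tunicamycin treatment and from untreated cells, with no harringtonine. The cells of all 4 groups were fetal liver Erythroblasts that lacked Trp53 (genotype Trp53 -/-) on the mixed background FVB/n x C57BL/6. They were cultured with dexamethasone, stem cell factor and erythropoietin in StemPro. The labels do not say whether the 3 libraries of a group came from separate cultures or animals, so every p-value below measures only the spread between these libraries. All 8 erythroid marker genes were above 5 CPM (counts scaled to a common library total) in RNA, with summed levels of 4430 to 4738 under tunicamycin and 4520 to 4816 untreated. None of 8 macrophage, 8 neutrophil and monocyte, 8 hepatocyte and 8 endothelial and stromal markers reached 5 CPM, while 1 of 7 megakaryocyte markers (Gp5) and 1 of 6 mast cell markers (Ms4a2) did. The summed megakaryocyte markers lay at 94.4 to 103.8 CPM under tunicamycin and 113 to 119.3 untreated, and their part in the results was not tested.

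Tunicamycin stops proteins of the endoplasmic reticulum (ER) from being N-glycosylated, and the unfolded proteins activate the sensors PERK, IRE1 and ATF6. PERK phosphorylates the initiation factor eIF2, which lowers delivery of initiator tRNA to most mRNAs while some mRNAs with upstream reading frames are still translated. Harringtonine lets elongating ribosomes run off but arrests those that have just joined at a start codon, so that footprints pile up at sites of initiation.

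The deposited positions were first set against annotated sequence. A 28-base window of RefSeq sequence (GRCm38.p6) beginning at the deposited position was read on the gene's strand. It is shown for histone, ribosomal protein, initiation factor and ATP synthase genes, groups that are described below. The capitals mark the ATG. Hist1h2ag and Hist1h2an encode histone H2A, Hist1h2be histone H2B, Rpl13a a large subunit ribosomal protein, Eif3g a subunit of initiation factor eIF3 and Atp5b the beta subunit of ATP synthase.
Hist1h2ag, chr13:22042913-22042940, minus strand: tttaatctttacaATGtctggacgcggc
Hist1h2an, chr13:21787204-21787231, minus strand: ctttttgtttagaATGtctggacgcggc
Hist1h2be, chr13:23585942-23585969, minus strand: aagagatctgaagATGcctgagccagcc
Hist1h2be, chr13:23585941-23585968, minus strand: agagatctgaagATGcctgagccagcca
Rpl13a, chr7:45128700-45128727, minus strand: gcggctgccgaagATGgcggaggggcag
Eif3g, chr9:20898548-20898575, minus strand: taagacttcgagATGccgactggcgact
Atp5b, chr10:128083315-128083342, plus strand: ccggattccgccATGttgagtcttgtgg

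In each of these the ATG begins 12 or 13 bases after the position because the windows were picked for it. The 2 neighbouring Hist1h2be positions, 1 base apart, point to the same ATG. Of 9025 positions, 1219 fell in a RefSeq window around a transcription start. The letters ATG began 12 bases after the position in 10.4% of the 875 with sequence at that offset and 13 bases after it in 14.2% of 847. At any other offset from -20 to 30 the share lay between 0% and 3.73%. In 600 whole 28-base windows 51.7% held an ATG on the gene's strand, against 27.5% of all windows of that length in the 32851 RefSeq start regions. The 2 offsets together covered 211 of the 1219 positions (17.3%), in 181 genes. None of the genes with the 3 smallest p-values in each direction, described below, was among them. Positions outside those regions were not read.

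The 6 harringtonine libraries held 0.559 to 0.648 M reads at kept positions under tunicamycin and 0.447 to 0.524 M untreated. The 6 RNA libraries held 14.5 to 43.5 M reads under tunicamycin and 12.9 to 49.0 M untreated. A position had been kept where the 3 libraries of either treatment added up to 20 reads or more, and 6828 positions met this in both treatments, 1597 under tunicamycin alone and 600 untreated alone. The rule was on raw reads, and every tunicamycin library of harringtonine held more of them than any untreated one. The part of this depth in the 1597 against 600 was not tested. A gene kept through 1 treatment alone had to hold more reads there, so such genes are marked as they appear. Values below are CPM of the reads of these genes in that library, changes are log2 of tunicamycin over untreated with the standard error (SE) of the edgeR fit, and scaling sets the typical gene near 0. In these bulk libraries fewer cells of a type and less RNA per cell cannot be told apart.

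No gene's ratio of harringtonine to RNA passed the test. Of 4535 genes with enough reads, edgeR's quasi-likelihood test called 0 (0% of those tested) at an adjusted p under 0.05. Without adjustment 375 genes (8.27%) had p under 0.05, of which 196 (4.32%) were on the higher and 179 (3.95%) on the lower side. On the same counts DESeq2 called 84 genes (1.85%), 39 higher (0.86%) and 45 lower (0.992%), and limma voom called 1 (0.0221%). These shares are of all 4535 genes, although DESeq2 gave 616 of them no adjusted p. All 84 DESeq2 calls had the same sign in edgeR and 82 had an unadjusted edgeR p under 0.05. Of the DESeq2 calls, 5 of the higher genes had been kept through tunicamycin alone and 13 of the lower through untreated alone. The harringtonine CPM of the treatments did not overlap in 451 of the 4535 genes (9.94%), and statements below that groups are apart are to be read against that share.

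The 2 assays behind the ratio were also compared by treatment 1 at a time, within the fit of all 12 libraries. That fit estimates the variation of a gene over both assays together, although their spread differed (given below). In harringtonine reads alone edgeR passed 1 gene (0.0221%), Hist1h4k. In RNA alone it passed 5 (0.11%), all higher under tunicamycin, namely Chac1, Herpud1, Trib3, Polr2a and Dync1h1. With the replicate number of the RNA libraries as a block RNA alone gave 8 genes, and the 6 RNA libraries fitted alone gave 14. The median of the ratio change over all tested genes was 0.01, and its standard deviation over genes was 0.53, against 0.51 for harringtonine and 0.16 for RNA.

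The median half-width of a gene's 95% interval was 0.70 on the log2 scale. It was 1.12 among 742 genes with under 50 harringtonine reads and 0.77 among 1856 genes with 50 or more but under 200. From 200 reads upward it changed little, at 0.54 for 1449 genes under 1000 reads and 0.52 for 488 genes with 1000 or more. The common coefficient of variation between libraries was 25.9% in harringtonine and 6.99% in RNA.

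**Figure D1:**
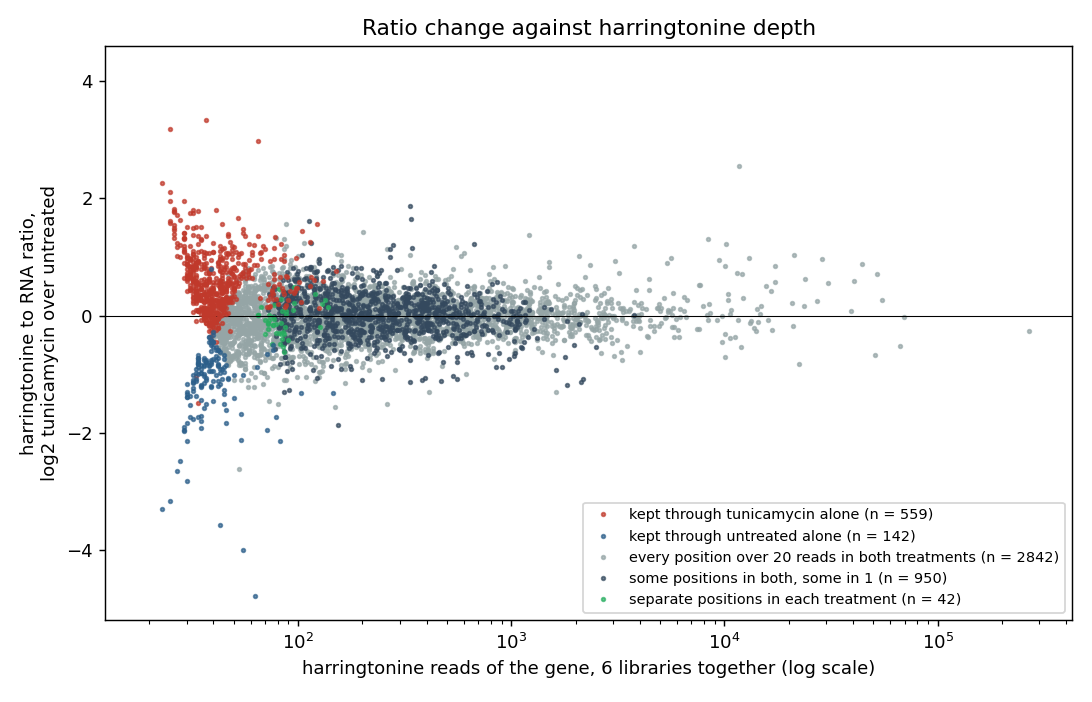
The plot of ratio change by depth shows 1 point for each tested gene, with the log2 change of the harringtonine to RNA ratio (tunicamycin over untreated) against the gene's harringtonine reads in 6 libraries on a log scale, coloured by the treatment in which its positions were kept. The 559 genes kept through tunicamycin alone sit mostly above 0 and the 142 kept through untreated alone below it, as the choice of positions fixes, and the cloud is widest at low depth; 1 gene below the axis is not drawn.

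Hist1h4k, 1 of several near-identical genes for histone H4, had the smallest p of all genes, and its position was kept in both treatments. It had 4897, 3635 and 7890 harringtonine CPM under tunicamycin and 1691, 1117 and 1226 untreated. The lowest tunicamycin library lay above the highest untreated one. Its RNA came to 2.19, 2.34 and 1.82 CPM under tunicamycin and 4.08, 2.56 and 2.36 untreated, from 349 RNA reads in all. Harringtonine reads rose by 2.01 ± 0.26 (SE, edgeR adjusted p = 0.00458 in the fit of 12 libraries). The ratio change was 2.55 ± 0.41 with an edgeR adjusted p of 0.0627, a DESeq2 adjusted p of 8.16e-05 and a voom adjusted p of 0.0159. The ratio passed with edgeR when tunicamycin library 2 or 3 or untreated library 1 of harringtonine was left out. Of 25 alternatives in all it passed in 6, which include DESeq2, voom and a threshold of 0.1. In the other 19 it did not pass, with an edgeR adjusted p of up to 0.303. Near-identical copies can share reads, so which H4 gene the reads came from is uncertain.

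The single position of Hist1h4k lay 300 nt from the 5' end of the RefSeq gene (H4c12, chr13:21750145-21750553, GRCm38.p6), at 21750253 on the minus strand. Of the other H4 genes, Hist1h4m had its positions at 290 to 340 nt from the 5' end, with 175 reads under tunicamycin and 38 untreated at its largest, and no RNA read. The highest position of each of the other 10 H4 genes lay within 87 nt of the 5' end. Hist1h4c, the deepest of them, had 12223 and 12923 reads under tunicamycin and 10444 and 8456 untreated at positions 12 and 6 nt in. The harringtonine changes of these 10 genes ran from -0.17 to 0.52, and none passed.

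Mrpl18, a mitochondrial ribosomal protein, and Cd24a, a surface glycoprotein, had the next smallest p on the higher side. Cd24a had 125, 116 and 219 harringtonine CPM under tunicamycin and 52.1, 20.4 and 58.8 untreated, with no overlap. Its RNA did not pass, at 5790, 5217 and 5019 under tunicamycin and 5986, 5402 and 5710 untreated. The ratio change was 1.87 ± 0.38 (edgeR adjusted p = 0.174, DESeq2 adjusted p = 0.000715), and it was 0.67 when only the position kept in both treatments was counted.

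The Cd24a reads lay at 4 positions (chr10, plus strand). At the position 65 nt from the gene's 5' end it had 24, 11 and 5 reads under tunicamycin and 13, 4 and 5 untreated, and these overlapped. The other 3 positions lay 3743, 3812 and 3813 nt from the 5' end on the genome, introns included, and each reached 20 reads under tunicamycin alone. The largest of them, at 3812 nt, had 13, 27 and 63 reads under tunicamycin and 5, 2 and 10 untreated.

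Mrpl18 had 14.0, 14.5 and 29.1 harringtonine CPM under tunicamycin and 0, 4.52 and 2.10 untreated, from 37 reads at 1 position that was kept through tunicamycin alone. That position was 6369 nt from the 5' end and 73 nt from the 3' end of the gene. The fitted ratio change was 3.33 ± 0.67 (edgeR adjusted p = 0.174).

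Xbp1 encodes a transcription factor of the unfolded protein response whose mRNA is spliced by IRE1. It had 31.2, 74.1 and 54.7 harringtonine CPM under tunicamycin and 86.9, 145 and 122 untreated, and the groups did not overlap. Its RNA had 82.2, 118 and 109 CPM under tunicamycin and 72.3, 89.2 and 83.7 untreated. The ratio change was -1.51 ± 0.35 (edgeR adjusted p = 0.339, DESeq2 adjusted p = 0.00282), made of -1.17 ± 0.32 in harringtonine and 0.34 ± 0.15 in RNA, neither past the test. Both of its positions were kept in both treatments and lie 1 nt apart, 4209 and 4210 nt from the 5' end of the gene (chr11:5520641-5525993). No position near the annotated start of Xbp1 was among those kept.

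Ergic2, a protein of the compartment between ER and Golgi, and Scaf4, an RNA polymerase II binding factor, completed the 3 smallest p-values on the lower side, and both had been kept through untreated alone. Ergic2 had 1 read in each tunicamycin library and 10, 7 and 5 untreated, with a fitted change of -3.16 ± 0.58 (edgeR adjusted p = 0.125). Scaf4 had 3, 10 and 7 reads under tunicamycin and 13, 35 and 14 untreated, at -2.14 ± 0.51 (0.339). Their RNA changes were -0.03 ± 0.08 and 0.18 ± 0.14.

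**Figure D2:**
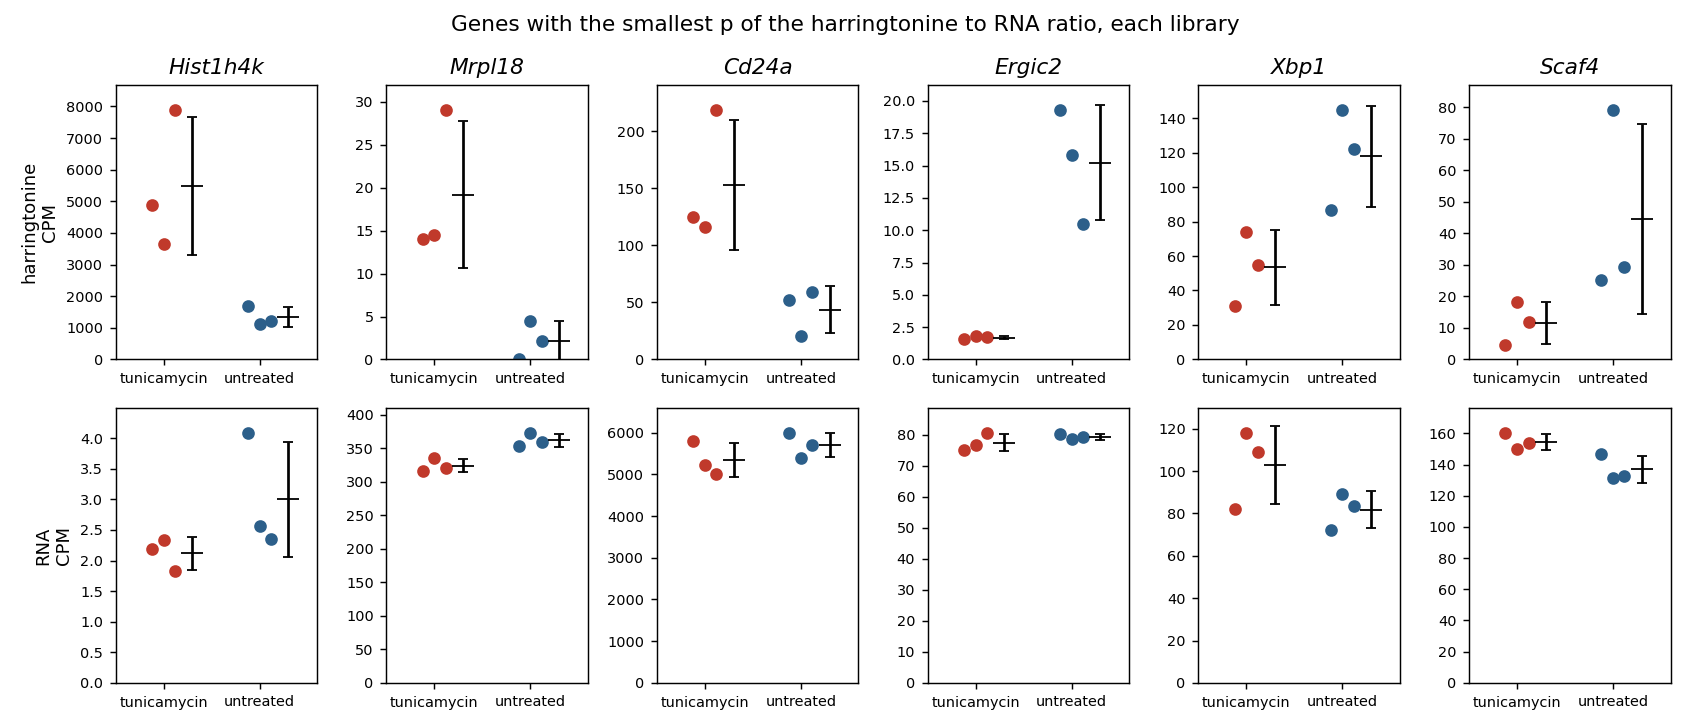
The plot of the genes with the 3 smallest p-values in each direction shows CPM in each library, harringtonine in the upper row and RNA in the lower, tunicamycin left of untreated, with the mean and SD of 3 libraries as a bar (drawn down to 0). The harringtonine groups are apart in all 6 panels, as genes chosen by their p would be, and each RNA change is smaller than its harringtonine change.

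Chac1, Herpud1 and Trib3, targets of the unfolded protein response, had the smallest p-values in RNA alone. The harringtonine change was the smaller in each of the 4 such targets described here, though none of their ratios passed. RNA is the lower term of the ratio, so genes chosen for an RNA rise tend to a lower ratio. The other RNA calls went both ways. Polr2a changed by 0.64 in RNA and -0.16 in harringtonine, and Dync1h1 by 0.56 in RNA and 1.00 in harringtonine. Chac1, a glutathione-degrading enzyme induced by ATF4, had 26.7, 40.4 and 43.2 RNA CPM under tunicamycin and 5.07, 5.36 and 4.71 untreated. Its RNA rose by 2.86 ± 0.19 (edgeR adjusted p = 5.26e-07). Its harringtonine reads were 11, 5 and 10 under tunicamycin and 4, 0 and 4 untreated, kept through tunicamycin alone, and the ratio change of -1.49 has an interval from -3.40 to 0.43.

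Herpud1, an ER membrane protein of protein degradation, had 108, 133 and 134 RNA CPM under tunicamycin and 46.8, 47.3 and 54.8 untreated, and rose by 1.34 ± 0.12 (edgeR adjusted p = 1.65e-05). It had 65.5, 74.1 and 106 harringtonine CPM under tunicamycin and 32.8, 43.0 and 58.8 untreated. Both assays were higher in every tunicamycin library, and the harringtonine change of 0.85 ± 0.28 did not pass. The ratio change was -0.49, with an interval from -1.16 to 0.18.

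Hspa5 encodes BiP, the main chaperone of the ER lumen. Its RNA had 1027, 1196 and 1235 CPM under tunicamycin and 624, 675 and 734 untreated, a change of 0.77 ± 0.17 that passed only when the 6 RNA libraries were fitted alone (edgeR adjusted p = 0.0042, against 0.188 in the fit of 12). Its harringtonine reads overlapped, with 275, 326 and 417 CPM under tunicamycin and 280, 292 and 342 untreated. The ratio change was -0.63 ± 0.24 (adjusted p = 0.486), and its interval runs from -1.15 to -0.11. Trib3, a pseudokinase induced by ATF4, had an RNA rise of 0.87 ± 0.13 (adjusted p = 0.0108) and a harringtonine change of 0.17 ± 0.39.

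Over the whole list for ER folding and degradation, 20 genes were tested and 0 were called by edgeR. At an unadjusted p under 0.05, 0 were on the higher and 3 on the lower side, Xbp1, Hspa5 and Pdia3. Of all tested genes 4.32% were on the higher and 3.95% on the lower side. In this list DESeq2 called 1, Xbp1. The median ratio change was -0.17, against 0.01 for all genes, with medians of 0.01 in harringtonine and 0.20 in RNA. Of the 22 ATF4 targets tested, 0 reached an unadjusted p under 0.05 on either side, and the median was -0.18. Their medians in harringtonine and RNA were close, at 0.09 and 0.08. Over the 14 ATF4 targets with every position kept in both treatments the median ratio change was -0.08. Over the 14 such genes of the ER list it was -0.22.

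**Figure D3:**
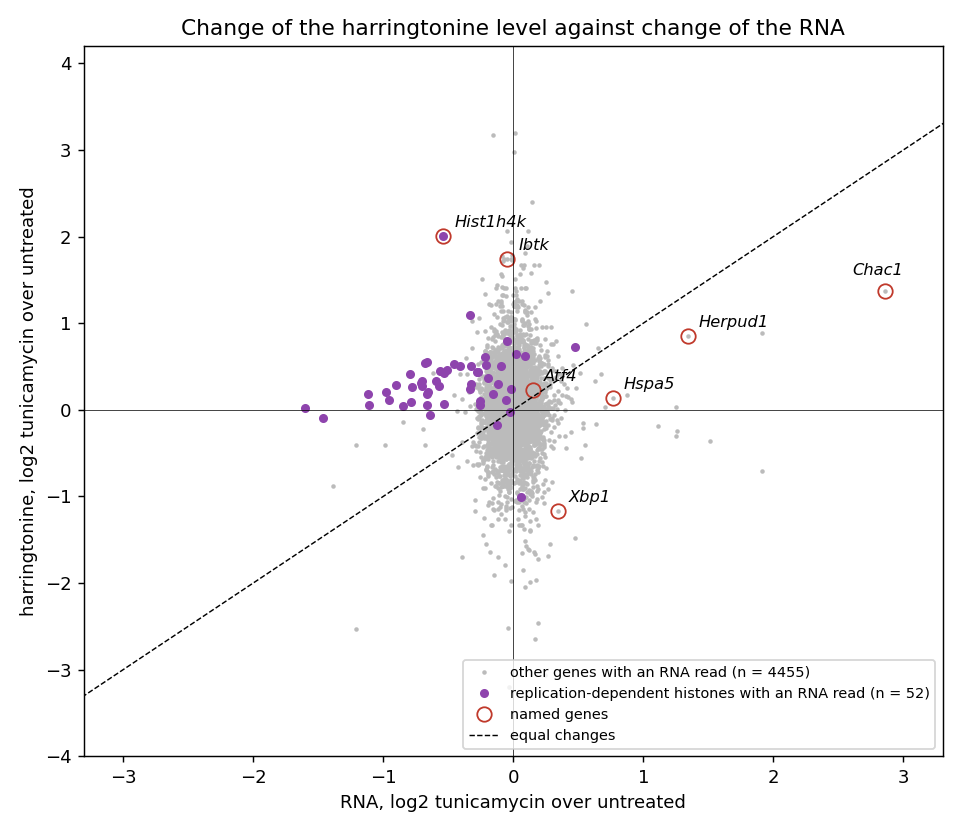
The plot of harringtonine change against RNA change shows 1 point for each of 4504 genes with an RNA read, both axes in log2 of tunicamycin over untreated, with 52 histone genes coloured, named genes ringed and the line of equal changes dashed; 3 genes lie outside the axes. Most of the spread is vertical, Chac1, Herpud1 and Hspa5 lie to the right and below the line, and Hist1h4k and Xbp1 lie far above and below it.

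The mRNAs known for upstream reading frames and translation when eIF2 is phosphorylated had a median at that of all genes. Of 29 genes listed, 14 were tested, 1 was higher (Ibtk) and 0 lower at an unadjusted p under 0.05, and the median was 0.00. Atf4, the transcription factor whose translation is the best known response to eIF2 phosphorylation, had 429, 479 and 539 harringtonine CPM under tunicamycin and 330, 554 and 336 untreated, which overlap. The ratio change was 0.08 ± 0.27, with an interval from -0.50 to 0.66 and an edgeR adjusted p of 0.971. Ddit3, Ppp1r15a and Slc35a4 had no kept harringtonine position and were not tested.

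Atf4 reads lay at 2 neighbouring positions 484 and 485 nt from the 5' end and at 1 position 566 nt further down. The first of these held 63.9 ± 4.5% of the gene's reads under tunicamycin and 68.4 ± 4.8% untreated (SD, n = 3 each, 2-sided exact permutation p = 0.3). The position 566 nt further down held 11.4 ± 11.3% under tunicamycin and 11.4 ± 7.3% untreated.

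Ifrd1, a transcriptional regulator with a known upstream reading frame, is the case where the gene sum and its positions part. The sum gave 6, 16 and 17 harringtonine reads under tunicamycin and 6, 6 and 16 untreated, and a ratio change of 0.14 ± 0.49, against 1.86 with the main position alone. Its 2 positions, 28 and 183 nt from the 5' end (chr12, minus strand), lie 155 nt apart. The downstream one had 4, 11 and 13 reads under tunicamycin and 1, 1 and 4 untreated, and the upstream one had 2, 5 and 4 under tunicamycin and 5, 5 and 12 untreated.

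The downstream position of Ifrd1 thus held 70.6 ± 5.2% of its reads under tunicamycin and 19.4 ± 4.8% untreated, with no overlap and the smallest p that 3 against 3 libraries allow (2-sided exact permutation p = 0.1). Each position reached 20 reads in 1 treatment only, so this share had to differ between the treatments, and it rests on 67 reads. Over all 2305 tested genes with several positions the main-position share did not overlap in 289 (12.5%). Among the 61 genes named by the rule and compared in this way it was so in 8, with 0.678 as the smallest p after Benjamini-Hochberg adjustment of the exact permutation tests. Besides Ifrd1 these were Eif1ax, Slc6a9, Prc1, Sc5d, Pmvk, Rpl6 and Eif3b. The share was 85.3 ± 4.5% under tunicamycin and 69.8 ± 9.8% untreated for Rpl6 (SD, n = 3 each, exact permutation p = 0.1). For Eif3b it was 26.2 ± 0.8% under tunicamycin and 39.0 ± 4.8% untreated (SD, n = 3 each, exact permutation p = 0.1). Rpl6 also had positions that reached 20 reads in 1 treatment only, so the choice of positions can shift its share.

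Ibtk, an inhibitor of Bruton's tyrosine kinase, had 9, 4 and 8 harringtonine reads under tunicamycin and 2, 2 and 1 untreated at 1 position kept through tunicamycin alone (1.79 ± 0.56, edgeR adjusted p = 0.443). Pnrc2, a decapping factor, was measured more deeply, with 549, 651 and 800 CPM under tunicamycin and 691, 855 and 1004 untreated, which overlap. Its ratio change was -0.24 ± 0.25. Trp53, deleted by genotype in all groups, still had reads in both assays, with 170, 212 and 226 harringtonine CPM under tunicamycin and 162, 208 and 248 untreated and a ratio change of 0.04 ± 0.23. Which part of the gene the allele lacks is not in the labels, so this checks nothing about the genotype.

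**Figure D4:**
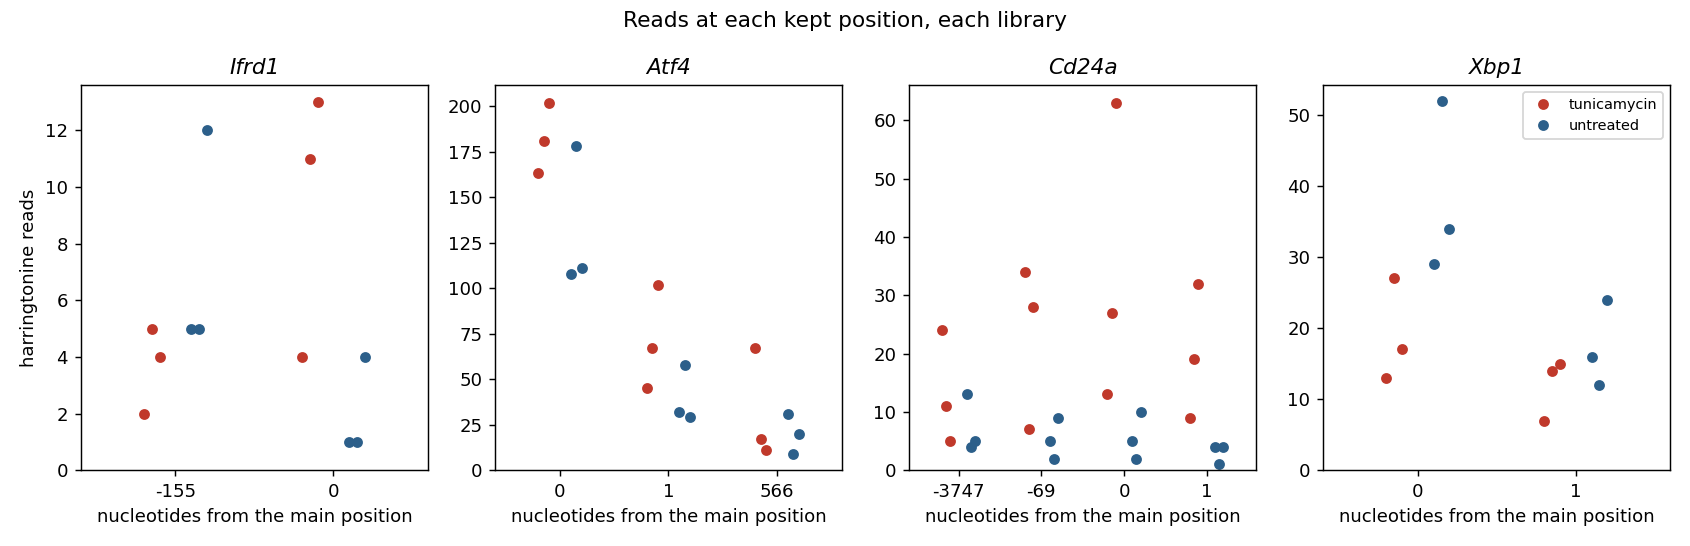
The plot of reads at each kept position shows harringtonine reads in each library for Ifrd1, Atf4, Cd24a and Xbp1, with tunicamycin points left of untreated points and positions labelled by their distance in nucleotides from the gene's main position. In Ifrd1 the main position has more reads in all under tunicamycin and the upstream one (-155) more untreated, in Cd24a the groups are apart at 2 of the 3 downstream positions, and the Atf4 groups overlap at all 3 positions.

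Replication-dependent histone genes, whose mRNAs end in a stem-loop and not in a poly(A) tail, were the list farthest from the other genes. Of 52 with an RNA read, 21 were higher and 0 lower at an unadjusted p under 0.05, against 4.32% and 3.95% of all tested genes. In 49 the change was above 0, against 2298 of all 4507 genes with an RNA read. The median ratio change was 0.85, from medians of 0.29 in harringtonine and -0.52 in RNA, and DESeq2 called 4 higher, Hist1h4k, Hist1h3e, Hist1h2ag and Hist1h2bb. A further 4 had no RNA read, and their ratio cannot be read.

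Together the histone genes took 160309, 157858 and 188207 harringtonine CPM under tunicamycin and 136469, 127906 and 133609 untreated, with no overlap. Their RNA took only 171, 184 and 170 CPM under tunicamycin and 219, 194 and 161 untreated, and these overlap. The median histone gene had 130 RNA reads in 6 libraries and 3774 harringtonine reads. Copies of these genes are near-identical, and no source used here gives how such reads were split.

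Hist1h2ag, whose start window is printed above, had 9626, 10969 and 10022 harringtonine CPM under tunicamycin and 8023, 6952 and 7020 untreated. Its RNA had 0.821, 0.809 and 0.882 CPM under tunicamycin and 1.50, 1.05 and 1.02 untreated, from 140 reads. Both assays were apart, in opposite directions, and the ratio change was 0.97 ± 0.25 (edgeR adjusted p = 0.339, DESeq2 adjusted p = 0.0499). Hist1h3b, a histone H3 gene, had a ratio change of 1.37 ± 0.41 with -0.09 ± 0.14 in harringtonine and -1.46 ± 0.38 in RNA, where it had 53 reads. The replacement histones, whose mRNAs are polyadenylated, had a median of 0.02 over 7 genes, with 0 at an unadjusted p under 0.05.

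Most ribosomal protein genes had a change below 0, against 2209 of all 4507 genes with an RNA read. At an unadjusted p under 0.05, 4.32% of all tested genes were higher and 3.95% lower. Of 32 small subunit genes 28 had a change below 0, with 0 higher and 5 lower at an unadjusted p under 0.05 and a median of -0.18. Of 42 large subunit genes with an RNA read 31 were below 0, with 2 higher and 3 lower and a median of -0.26. Their RNA medians were -0.02 and 0.04. The small subunit genes together took 41544, 51506 and 40095 harringtonine CPM under tunicamycin and 57919, 51925 and 57708 untreated, apart by little. The large subunit genes took 46368, 48459 and 35426 under tunicamycin and 59583, 57536 and 44957 untreated, which overlap, as did the summed RNA of both.

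Rps19, a small subunit protein known from Diamond-Blackfan anaemia, had 2190, 2885 and 2363 harringtonine CPM under tunicamycin and 3510, 4808 and 3626 untreated. These did not overlap, its RNA change was 0.00, and its ratio change was -0.70 ± 0.24 (edgeR adjusted p = 0.467, DESeq2 adjusted p = 0.0925). Rpl23a had 139, 168 and 109 under tunicamycin and 218, 256 and 296 untreated, with a ratio change of -0.995 ± 0.263 (edgeR adjusted p = 0.37, DESeq2 adjusted p = 0.00947). Rps12 had 23.4, 27.1 and 23.9 under tunicamycin and 42.5, 54.3 and 63.0 untreated, with a ratio change of -1.11 ± 0.31 (edgeR adjusted p = 0.379, DESeq2 adjusted p = 0.0499).

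Rpl6, a large subunit gene, had a ratio change of opposite sign. It had 151, 172 and 161 harringtonine CPM under tunicamycin and 92.7, 76.9 and 113 untreated, with no overlap, an RNA change of 0.00 and a ratio change of 0.75 ± 0.23 (edgeR adjusted p = 0.443, DESeq2 adjusted p = 0.0176). A terminal oligopyrimidine (TOP) start gives other mRNAs translational control shared with ribosomal proteins. Among 16 of these, 1 was higher and 3 lower at an unadjusted p under 0.05, against 4.32% and 3.95% of all tested genes. Their median was -0.36. The higher one was Eif4b, an initiation factor that stimulates the helicase eIF4A, with 25, 23 and 34 reads under tunicamycin and 8, 4 and 10 untreated at 2 positions kept through tunicamycin alone. Its ratio change was 1.44 ± 0.34 (edgeR adjusted p = 0.339, DESeq2 adjusted p = 0.01). The poly(A) binding protein gene Pabpc1 was at -0.88 ± 0.34.

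Over all members, heat shock and chaperonin genes had the lowest median with the other TOP mRNAs. This rank did not hold among genes with every position kept in both treatments. There the medians were -0.26 for 9 heat shock genes and -0.27 for 8 other TOP mRNAs. For 24 small subunit and 36 large subunit genes they were -0.31 and -0.27. Of all 24 heat shock and chaperonin genes tested 22 were below 0, against 2209 of all 4507 genes with an RNA read. At an unadjusted p under 0.05, 0 of the list were higher and 6 lower, against 4.32% and 3.95% of all tested genes. The median of -0.36 came from -0.30 in harringtonine and 0.10 in RNA. DESeq2 called 3 lower, Tcp1, Hspa9 and Hspd1. Tcp1, a subunit of the cytosolic chaperonin, had 325, 326 and 255 harringtonine CPM under tunicamycin and 432, 412 and 386 untreated, with no overlap. Its ratio change was -0.56 ± 0.20 (edgeR adjusted p = 0.479, DESeq2 adjusted p = 0.000924), and -0.96 with the main position alone. That position lay 254 nt from the 5' end of the gene. The main positions of the list members Cct5 and Hsp90aa1 lay 3800 and 4166 nt from it, introns included. As a sum the list took 9178, 8424 and 8213 under tunicamycin and 9948, 10767 and 9174 untreated, which just overlap. Its summed RNA was higher in all 3 tunicamycin libraries, at 21702, 22818 and 23725 against 20579, 21037 and 21570. This was not particular to the list. Summed RNA was also higher without overlap for the eIF2 pathway, ATF4 targets, ER folding, other TOP mRNAs, tRNA synthetases, mitosis and sterol synthesis. It was lower without overlap for globins and haem synthesis, the p53 pathway and survival and death genes.

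Of 56 genes of mitochondrial respiration 40 were above 0, against 2298 of all 4507 genes with an RNA read, and the median was 0.12. At an unadjusted p under 0.05, 2 were higher and 1 lower, a share under the 8.27% of all genes, and DESeq2 called 0. Cox7a2, a subunit of cytochrome c oxidase, had 85.8, 48.8 and 70.1 harringtonine CPM under tunicamycin and 48.3, 33.9 and 35.7 untreated, with 0.80 ± 0.30 (edgeR adjusted p = 0.481). Atp5a1, the alpha subunit of ATP synthase, was the lower one at -0.54 ± 0.23. Its main position lay 550 nt from the 3' end of the gene.

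**Figure D5:**
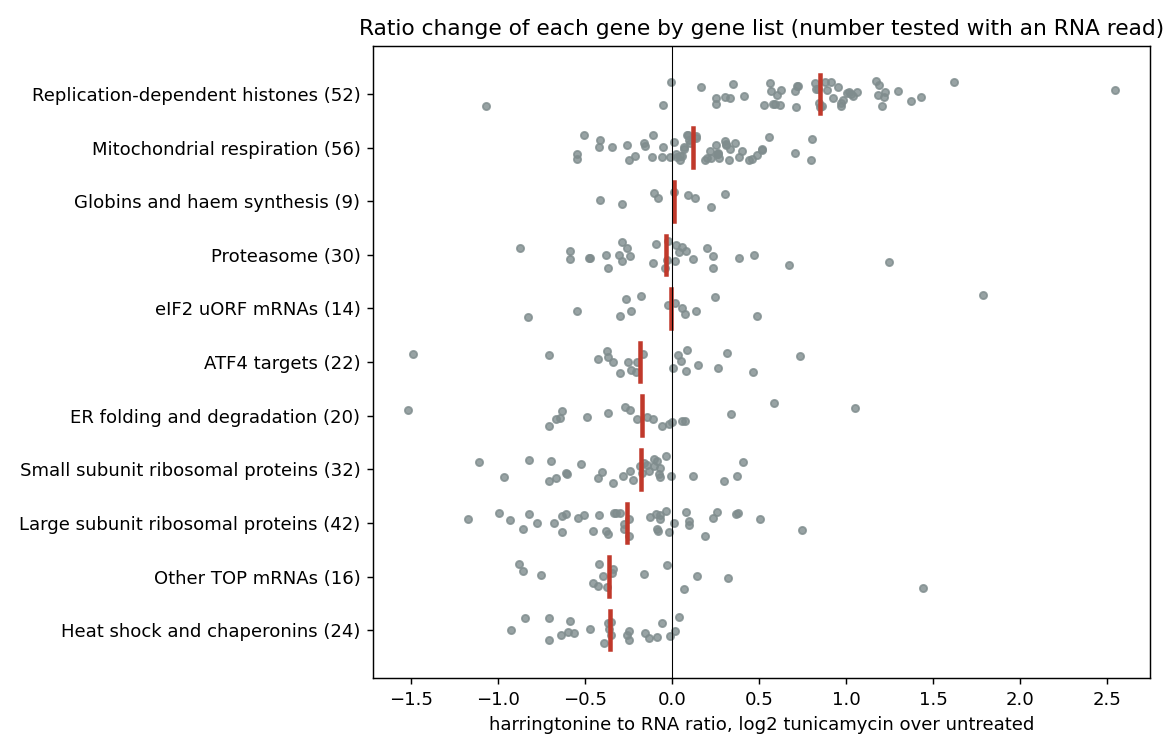
The plot of ratio change by gene list shows 1 point for each tested gene with an RNA read and the list median as a red bar, on a log2 axis of tunicamycin over untreated. The histone median of 0.85 stands to the right, and the medians of the heat shock list (-0.36), the other TOP mRNAs (-0.36) and the ribosomal proteins (-0.18 and -0.26) stand left of 0, with single genes on both sides in each of these lists.

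Among the 4 erythroid lists Kit, the receptor for stem cell factor, had the smallest p. It had 134, 103 and 111 harringtonine CPM under tunicamycin and 232, 276 and 172 untreated, which did not overlap, and its RNA change was 0.05 ± 0.16. The ratio change was -1.03 ± 0.26 (edgeR adjusted p = 0.339, DESeq2 adjusted p = 0.00165). Of its 7 positions, the one 73 nt from the 5' end had 65, 28 and 23 reads under tunicamycin and 82, 25 and 41 untreated, and 4 others were kept through untreated alone.

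The remaining erythroid lists lay near all genes. For globins and haem synthesis 9 genes had an RNA read, with 0 at an unadjusted p under 0.05 and a median of 0.01. For the globin genes Hbb-bs, Hbb-bt, Hba-a1 and Hba-a2 the table held no RNA read, so that no ratio can be read. For iron handling the median of 13 genes was 0.05 with 1 lower at an unadjusted p under 0.05, for the red-cell membrane and enzymes that of 18 genes was -0.13, and for erythroid transcription factors and receptors that of 19 genes was 0.09, with 1 higher and 1 lower at an unadjusted p under 0.05.

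In the proteasome, Psma7 and Psma6, both alpha ring subunits, had changes of opposite sign. Psma6 had 303, 242 and 253 harringtonine CPM under tunicamycin and 442, 344 and 380 untreated, with -0.59 ± 0.21 (DESeq2 adjusted p = 0.00325). Psma7 had 46.8, 47.0 and 49.6 under tunicamycin and 23.2, 13.6 and 21.0 untreated at positions kept through tunicamycin alone, with 1.25 ± 0.29 (DESeq2 adjusted p = 0.0203). Neither passed with edgeR (adjusted p = 0.479 and 0.339), and the list's median over 30 genes was -0.03.

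Among genes of the initiation machinery edgeR called 0 and DESeq2 called 1, Eif4b. For 15 genes of the eIF2 pathway the median was -0.04, with 1 higher (Eif1b, 0.47 ± 0.21) and 0 lower at an unadjusted p under 0.05. For 25 other initiation factors it was -0.09, with 1 higher (Eif4b) and 2 lower, Eif3b and Eif3h, which was kept through untreated alone. The tRNA synthetases (21 genes, -0.07), mitosis (25 genes, -0.13), DNA replication (25 genes, 0.03), sterol synthesis (18 genes, -0.10), glycolysis (11 genes, 0.09), immediate early genes (11 genes, 0.11), p53 pathway (8 genes, -0.02), survival and death genes (8 genes, 0.21) and polyamine and oxidoreductase genes (18 with an RNA read, 0.06) had medians between -0.13 and 0.21, with at most 3 genes per list at an unadjusted p under 0.05. Of these, DESeq2 called the tRNA synthetase gene Vars (-0.93 ± 0.39), the kinesin gene Kif11 (-1.27 ± 0.39), the helicase gene Mcm6 (-0.87 ± 0.34) and the immediate early gene Ier5 (-0.91 ± 0.33), all lower. Counting only positions kept in both treatments gave -0.30 for Vars and -0.82 for Kif11, and Mcm6 was at -0.57 without harringtonine untreated library 1.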

How the data were processed

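Harringtonine values are the authors' raw read counts at single positions, summed here by gene over both strands, and RNA values are the deposited raw counts per gene, 1 value each. The submitters' processing notes name builds GRCm38 and mm10 and the tools HTSeq, STAR and edgeR; their versions and the options of counting are in no source used here. The harringtonine columns name a treatment, not a sample, so their numbers were paired with nothing. Counts of 12 libraries were fitted with edgeR 4.0.16 (R 4.3.3) with TMM, filterByExpr (minimum count 10, minimum total 15) and the quasi-likelihood test of the interaction of assay and treatment, adjusted by Benjamini-Hochberg over all 4535 genes tested. The 3 genes left out by the filter are not counted further. The code was run on simulated counts with 1 common spread for both assays and changes only in genes with many harringtonine reads. That setting differs from these data and does not measure the power of the test in them. DESeq2 1.42.0, limma voom (limma 3.58.1), other scalings, filters and positions, and leaving out each library were alternatives. Same-numbered RNA libraries deviated together (Spearman 0.565, 0.573 and 0.213 over genes, although tunicamycin library 3 reached 0.22 with untreated library 2). The RNA numbers were therefore used as a replicate block, but only in an alternative. The main fit had no block. CPM were computed here and served description only.

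Genes were to be named among those past the threshold whose treatments did not overlap and whose mean reached 5 CPM in both assays, otherwise as the 3 smallest p per direction, with Atf4, Ddit3, Ppp1r15a, Ifrd1, Ibtk, Pnrc2, Slc35a4, Hspa5, Herpud1, Chac1 and Trp53 and the 4 smallest p of each list (or all members of a smaller one). The H4 genes other than Hist1h4k, Hspa9, Hspd1, Hist1h3e, Hist1h2bb, Polr2a, Dync1h1 and Trim24 were named after their values were seen, as were the genes with a printed start window. Of the genes the rule names, 1 is not reported here. The members and lists were chosen with earlier results of these data known. Lists are described by counts and medians, with no test. RefSeq windows (GRCm38.p6) came with no genome, so sequence away from transcription starts was not used here.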

Additional observations from a re-analysis of the deposited data

Results flagged for a closer look

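Of all harringtonine reads, 9.33% (303262 reads) fell on 28 genes that had no RNA read in the count table, most of them on the globin genes Hbb-bs (266981 reads) and Hbb-bt (20894 reads). Their ratio to RNA cannot be read. A further 1.06% (34463 reads) fell on 75 genes whose symbol was not found in the count table, with 18912 reads under tunicamycin and 15551 untreated, and these entered no comparison.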

How the results depend on the processing

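The count of 0 genes whose ratio changed stayed 0 under 3 other scalings, robust edgeR, 3 other filters (1 added after seeing the data), both restrictions of positions and the replicate block within the RNA libraries. It was 84 with DESeq2, 1 with limma voom, 1 at an adjusted p under 0.1, and 0 to 2 without 1 library; the cause was not tested. Hist1h4k passed without harringtonine tunicamycin library 2 (adjusted p = 0.0194) or 3 (0.0493) or untreated library 1 (0.0255), where Trim24 also passed, lower (kept through untreated alone, with 1, 0 and 2 reads under tunicamycin, 1, 11 and 48 untreated). RNA alone gave 14 genes on its 6 libraries and 8 with the replicate block, against 5. Of 108 named genes under 25 alternatives, 18 of 2648 values changed sign, in 9 genes, none of them called. With the main position alone Atf4 was at -0.051, H2afx at -0.10 and Ifrd1 at 1.86. Without 1 library the ratio of Atf4 ranged from -0.048 to 0.37, Ifrd1 -0.15 to 0.78, Trp53 -0.11 to 0.19, Gapdh -0.0054 to 1.23, Slc25a39 -0.26 to 0.61, Ftl1 -0.59 to 0.93, H2afy -0.57 to 0.12 and H2afv -0.031 to 0.31; Gapdh and Ftl1 were kept through tunicamycin alone. The medians of the 7 lists recomputed kept their sign in all 25 alternatives (histones 0.63 to 0.96, small subunit -0.31 to -0.10, large subunit -0.35 to -0.17, other TOP mRNAs -0.51 to -0.08, heat shock -0.51 to -0.28, mitochondrial respiration 0.06 to 0.18, ER folding -0.28 to -0.12). Restricting shares to positions of 20 reads in each treatment could not be done for Ifrd1 or Rpl6, which keep under 2. The other list medians were not recomputed.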
